A study of Mus musculus with 41 samples.

Results

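The genes described here make and sense prostaglandins and leukotrienes, the lipid mediators derived from arachidonic acid. They are the cyclooxygenases Ptgs1 and Ptgs2, the prostanoid synthases Ptges, Hpgds and Tbxas1, the prostaglandin E2 receptor gene Ptger4, and the leukotriene genes Alox5, Alox5ap, Lta4h and Ltc4s. They were picked by gene symbol for their roles in the pathway, and all 10 were found among the 55453 genes listed. Each had an adjusted p-value in every comparison, so no member was lost to a filter on low counts.

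The cells came from tumours of MC38-luc, a mouse colon carcinoma line with a luciferase gene, grown in the rectum of female C57BL6 mice whose age the labels do not give. Irradiated tumours (SCRT, 5 Gy x 5 Fractions) were treated on days 9 to 13 after implantation, untreated tumours are labelled UT, and both were taken on day 14. Leukocytes positive for CD45 and CD11b were sorted into tumour-associated macrophages (TAM; Ly6C- Ly6G- F4/80+), inflammatory monocytes (IM; Ly6C+ Ly6G-) and granulocytes (Ly6C+ Ly6G+). There were 10 irradiated and 5 untreated TAM libraries, 9 irradiated and 5 untreated IM libraries, and 7 irradiated and 5 untreated granulocyte libraries, from 15 tumour numbers. Irradiated and untreated libraries carry different tumour numbers, and the subsets were sorted from overlapping sets of tumours.

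The values are the authors' deposited comparisons of irradiated over untreated cells within each subset. No value of a single library was analysed here, so read depth is unknown, and markers could not be set against the sort labels subset by subset. Each fold change stands beside its Wald statistic, which is the effect divided by its standard error, and an adjusted p under 0.05 is taken as a call. The standard error (SE) printed beside a fold is the deposited fold divided by its Wald statistic. Fold and Wald statistic differ in sign for 16 called genes in TAM, 3 in monocytes and 0 in granulocytes. Not all folds can therefore be the tested effects, and they were read as shrunken, which is an assumption. A pull toward 0 would not by itself turn a sign, as for S100a9 in TAM (-1.236 beside a Wald statistic of 4.155). If the folds are shrunken, fold and SE are both too small by an unknown amount. In either case the intervals are approximate.

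Phospholipases free arachidonic acid from membranes. Cyclooxygenases turn it into prostaglandin H2, from which the terminal synthases make prostaglandin E2, prostaglandin D2 or thromboxane. On the other branch, 5-lipoxygenase works with its activating protein to make leukotriene A4, which Lta4h turns into the neutrophil attractant leukotriene B4 and Ltc4s into the cysteinyl leukotriene C4. Macrophages and monocytes can run both branches, neutrophils are a main source of leukotriene B4, and prostaglandin E2 from Ptgs2 is known for dampening immune responses in tumours.

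The promoters of both cyclooxygenase genes are shown because the genes responded differently in the sorted subsets. The windows run from 250 bases before to 50 bases after the RefSeq start in build GRCm38.p6, which is older than the build of the deposited tables. Ptgs2 lies at chr1:150099781-150100080 and Ptgs1 at chr2:36230176-36230475, both on the plus strand. Capitals mark matches, on either strand, to TATAAA, the E-box CACGTG, the cyclic AMP element TGACGTCA or its core TGACG, the C/EBP palindrome TTGCGCAA and the NF-kB motif. The C/EBP palindrome was added to the search after the sequences were seen.
Ptgs2: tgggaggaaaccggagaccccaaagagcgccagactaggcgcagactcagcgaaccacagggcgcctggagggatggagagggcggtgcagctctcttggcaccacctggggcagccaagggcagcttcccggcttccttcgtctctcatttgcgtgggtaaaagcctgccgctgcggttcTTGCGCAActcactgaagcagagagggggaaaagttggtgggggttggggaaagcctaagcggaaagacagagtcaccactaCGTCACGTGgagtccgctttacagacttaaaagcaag
Ptgs1: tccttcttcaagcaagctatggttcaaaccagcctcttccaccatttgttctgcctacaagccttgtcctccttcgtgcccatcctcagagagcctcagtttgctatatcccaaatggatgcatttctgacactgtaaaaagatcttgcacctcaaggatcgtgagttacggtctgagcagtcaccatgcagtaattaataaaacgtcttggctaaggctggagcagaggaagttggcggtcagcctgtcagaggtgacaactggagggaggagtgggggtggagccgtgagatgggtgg
The Ptgs2 window holds the C/EBP palindrome at positions -69 to -62 from the RefSeq start, a reversed TGACG at 14 to 18 and, overlapping it, the E-box at 17 to 22. TTGCGCAA occurs in 0.183% of all 32851 promoter windows, CACGTG in 7.15% and TGACG in 20.8%. No such match lies in the Ptgs1 window. Of the 9 members with a window, Ptgs2 is the one that holds each of these 3 motifs, and TATAAA was found in Tbxas1 alone. TATAAA occurs in 13.6% of all windows, the full element TGACGTCA in 1.79% and the NF-kB motif in 8.46%, and none of the 9 windows holds either of the last pair.

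The mean count is the same in all 3 tables and was read as an average over the libraries of all subsets. By it, Ptgs2 had the highest level of the 10 genes. Its mean normalised count per kb of exon was 8230, above 99.1% of tested genes. Alox5ap, the 5-lipoxygenase activating protein gene, followed with 3070 per kb. Ptgs1 had 932, Alox5 600, Tbxas1 531, Lta4h 296, Ltc4s 291, Ptges 257 and Ptger4 148 per kb. Hpgds, the haematopoietic prostaglandin D synthase gene, was lowest with 57.6 per kb, near the median of tested genes (44.7). The spread of these levels over libraries is unknown, so neighbours in this order such as Lta4h and Ltc4s cannot be told apart, and the levels do not say which subset holds a transcript.

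**Figure D1:**
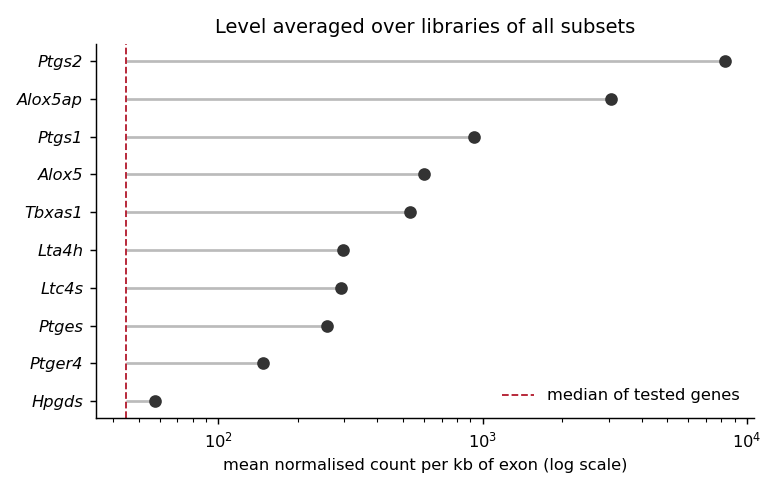
Mean normalised count per kb of exon (log axis) of the 10 genes, averaged by the authors over libraries of all subsets; the dashed line is the median of tested genes, 44.7. All 10 points lie to the right of the line, from 57.6 for Hpgds to 8230 for Ptgs2.

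Irradiation went with a higher Ptgs2 level in TAM, a lower one in granulocytes, and a negative value that missed the threshold in inflammatory monocytes. Ptgs2 encodes the inducible cyclooxygenase 2. In TAM the authors' deposited table gives Ptgs2 a log2 fold change of 1.23 (SE 0.234, Wald statistic 5.267, adjusted p = 3.57e-06), a 2.35-fold higher level in irradiated cells. For granulocytes the authors' deposited table gives it -0.885 (SE 0.250, Wald statistic -3.535, adjusted p = 0.00564), or 0.541 of the untreated level. In inflammatory monocytes it had -0.691 (SE 0.245, adjusted p = 0.0679) in the authors' deposited table. In bulk sorted samples a change in the share of cells that express a gene and a change in RNA per cell cannot be told apart.

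Ptgs1, the constitutive cyclooxygenase 1 gene, showed another pattern. It rose in inflammatory monocytes, where the authors' deposited table gives a log2 fold change of 1.05 (SE 0.237, Wald statistic 4.421, adjusted p = 0.000951), a 2.07-fold higher level in irradiated cells. Its p-value ranked 150 among the 14506 genes tested there. In the authors' deposited table Ptgs1 had -0.406 in TAM (adjusted p = 0.178) and 0.323 in granulocytes (adjusted p = 0.410), neither past the threshold.

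Among the terminal prostanoid synthases, Hpgds fell in TAM. The authors' deposited table gives it a log2 fold change of -1.88 (SE 0.369, Wald statistic -5.098, adjusted p = 8.03e-06), or 0.271 of the untreated level. Its values in the authors' deposited table were -1.003 in granulocytes (adjusted p = 0.0694) and -0.177 in inflammatory monocytes (adjusted p = 0.920). All 3 values were negative, but only that of TAM passed. Hpgds had a wide SE of 0.623 in monocytes, which leaves a 95% interval of the log2 fold change from -1.40 to 1.05 there.

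Ptges, which encodes the inducible microsomal prostaglandin E synthase, passed in no subset. In the authors' deposited table it had a log2 fold change of 1.34 in TAM (adjusted p = 0.0735), 0.261 in monocytes (adjusted p = 0.848) and 0.957 in granulocytes (adjusted p = 0.316). The SE of Ptges was between 0.535 and 0.632, so its intervals were wide, from 0.197 to 2.49 in TAM. Tbxas1, the thromboxane A synthase gene, had -0.142 in TAM (adjusted p = 0.651), 0.321 in inflammatory monocytes (adjusted p = 0.422) and 0.525 in granulocytes (adjusted p = 0.0823) in the authors' deposited table.

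Ptger4, which encodes the prostaglandin E2 receptor EP4, lay close to 0 throughout. Per the authors' deposited table its log2 fold change was 0.002 in TAM (adjusted p = 0.996), 0.028 in inflammatory monocytes (adjusted p = 0.960) and -0.085 in granulocytes (adjusted p = 0.814). The 95% interval was -0.331 to 0.387 in inflammatory monocytes and -0.450 to 0.280 in granulocytes. In TAM the fold is too near 0 for an SE to be derived from it.

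On the leukotriene branch, Alox5, the 5-lipoxygenase gene, rose in inflammatory monocytes. The authors' deposited table gives it a log2 fold change of 1.58 (SE 0.431, Wald statistic 3.663, adjusted p = 0.00982), a 2.99-fold higher level in irradiated cells. It had 1.03 in TAM (adjusted p = 0.0856) and 0.235 in granulocytes (adjusted p = 0.854) in the authors' deposited table.

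Ltc4s, the leukotriene C4 synthase gene, rose in granulocytes and in TAM. Its log2 fold change in the authors' deposited table was 1.36 in granulocytes (SE 0.383, Wald statistic 3.559, adjusted p = 0.00529) and 0.963 in TAM (SE 0.374, Wald statistic 2.574, adjusted p = 0.0403). The authors' deposited table gives 0.755 in inflammatory monocytes (adjusted p = 0.193), positive as in the other subsets but short of the threshold. The TAM call was lost when p-values were adjusted over every gene (adjusted p = 0.0748) or when Wald statistics were centred on their median (adjusted p = 0.0678).

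Alox5ap and Lta4h, which act just beside 5-lipoxygenase, passed in no subset. In the authors' deposited table Alox5ap had log2 fold changes of 0.365 in TAM, 0.071 in monocytes and 0.525 in granulocytes, with adjusted p-values from 0.248 to 0.935. Lta4h, the leukotriene A4 hydrolase gene, had 0.170, -0.316 and 0.062 in the same order in the authors' deposited table, with adjusted p-values from 0.301 to 0.865. Its SE was at most 0.182, the narrowest among the members with an SE in all 3 tables.

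**Figure D2:**
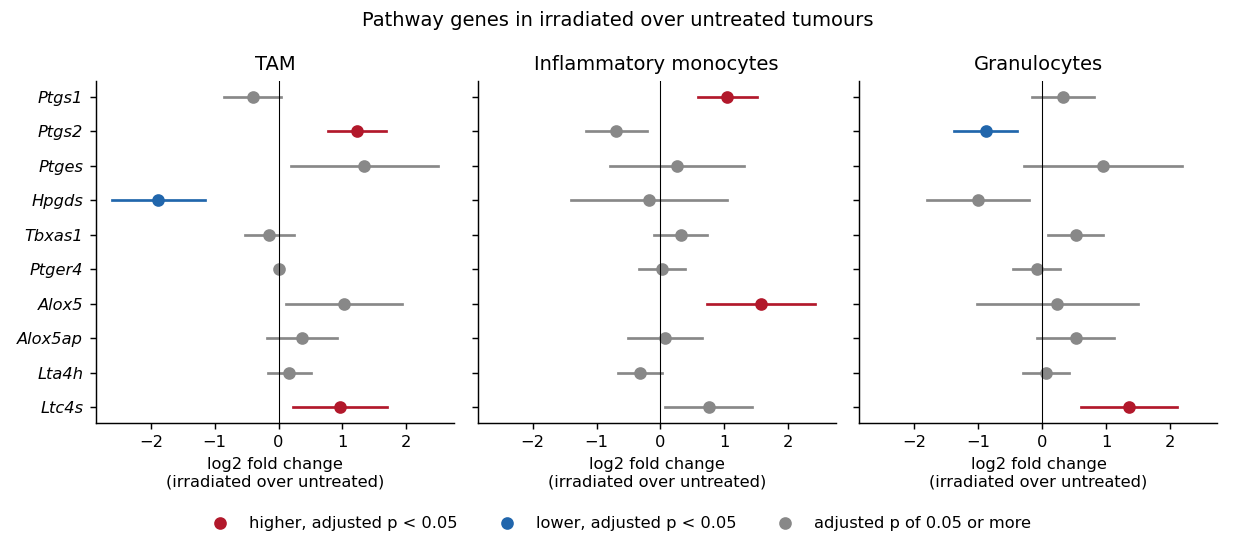
Log2 fold change of irradiated over untreated cells for the 10 genes in each sorted subset, with 95% intervals from the implied standard error (none for Ptger4 in TAM); colour marks calls at an adjusted p under 0.05. Ptgs2 lies at 1.23 in TAM and at -0.885 in granulocytes, while Ptgs1 and Alox5 are called in inflammatory monocytes.

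Counted by subset, 2 members rose and 1 fell in TAM, where 26.4% of all tested genes were called (13.9% higher and 12.5% lower). In inflammatory monocytes 2 rose and 0 fell by the authors' DESeq2 test, against 5.9% of all genes called (4.13% higher and 1.77% lower). At an unadjusted p under 0.05, 3 members were higher there and 1, Ptgs2, was lower. In granulocytes 1 rose and 1 fell, with 17.2% of all genes called (7.32% higher and 9.9% lower). The share of members called in TAM was thus near that of all genes. The median log2 fold change of the 10 members was 0.268 in TAM, 0.166 in monocytes and 0.279 in granulocytes, and over all tested genes it was 0.026, 0.020 and -0.031. Each of the 7 calls was lost when Wald statistics were divided by their robust SD (2.72 for TAM, 1.56 for monocytes, 2.09 for granulocytes), the strictest setting tried.

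Whether the response differed between subsets was tested as the difference of log2 fold changes, with the SE of each. Ptgs2 differed between TAM and granulocytes by 2.12 (TAM minus granulocytes, SE 0.342, 95% interval 1.44 to 2.79, adjusted p = 1.54e-07, normal test over all genes with Benjamini-Hochberg adjustment). Against inflammatory monocytes its difference was 1.92 (TAM minus monocytes, SE 0.338, 95% interval 1.26 to 2.58, adjusted p = 9.28e-06). For Ptgs1 the value ran the other way, at -1.45 (TAM minus monocytes, SE 0.328, 95% interval -2.10 to -0.811, adjusted p = 0.000871). Among all genes with such a test, 7.19% differed between TAM and monocytes, 11.4% between TAM and granulocytes and 1.32% between monocytes and granulocytes.

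The other members showed no called difference between subsets, and several intervals were wide. Hpgds had a TAM minus monocytes difference of -1.71 (SE 0.724, adjusted p = 0.138) and Alox5 a monocytes minus granulocytes difference of 1.35 (SE 0.775, adjusted p = 0.459). Between monocytes and granulocytes Ptgs2 differed by 0.194 (95% interval -0.492 to 0.880, adjusted p = 0.872). Ptger4 could be tested between monocytes and granulocytes only, with a difference of 0.113 (95% interval -0.399 to 0.625).

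A stricter test asked for opposite effects, taking the larger p of both comparisons where the signs differ. By it 0 members passed in any pair of subsets, against 0.0957% of all genes between TAM and granulocytes and 0 genes in both other pairs. At an unadjusted p under 0.05, 1 member passed between TAM and granulocytes and 1 between TAM and monocytes, Ptgs2 in both cases. Its larger p was 0.000407 against granulocytes (adjusted p = 0.130) and 0.00472 against monocytes (adjusted p = 1.0). All 3 called differences were lost when the test statistics were divided by their robust SD, with adjusted p-values of 0.215 to 0.994. The subsets share tumours, which neither test uses.

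**Figure D3:**
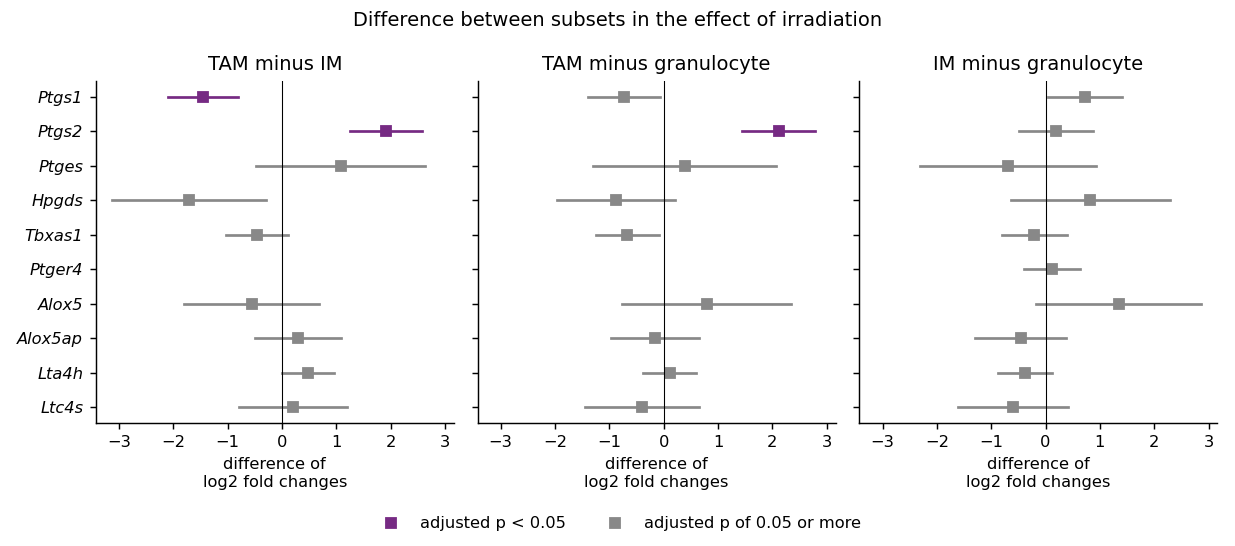
Difference between subsets of the log2 fold change of irradiated over untreated cells, with 95% intervals; purple marks an adjusted p under 0.05. Ptgs2 stands at 1.92 and 2.12 where TAM are set against monocytes and granulocytes, and Ptgs1 at -1.45 against monocytes.

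The genes whose 3 Wald statistics lay nearest to those of Ptgs2, out of 10151 genes whose mean count was 50 or more, were Xylt1 (Euclidean distance 0.89), Ell (0.99), Snx18 (1.23), Srgn (1.30) and Cd44 (1.43). For Xylt1 the authors' deposited tables give Wald statistics of 4.467 in TAM, -2.676 in monocytes and -3.895 in granulocytes, beside 5.267, -2.826 and -3.535 for Ptgs2. The likeness rests on 3 comparisons.

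Of 67 further genes of eicosanoid release, synthesis, breakdown and reception, 57 were tested in TAM, and 13 rose and 2 fell, about the share of all tested genes called there (26.4%). In inflammatory monocytes 8 of 53 rose and 0 fell by the authors' DESeq2 test (16 higher and 1 lower at an unadjusted p under 0.05), against 4.13% of all genes higher and 1.77% lower. In granulocytes 8 of 55 rose and 4 fell, against 7.32% of all genes higher and 9.9% lower. The tested genes had a median log2 fold change of 0.210 in TAM, 0.314 in monocytes and 0.303 in granulocytes, beside 0.026, 0.020 and -0.031 over all tested genes.

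The list for arachidonate release also holds genes that act on platelet-activating factor. Of its 14 tested genes 3 rose in TAM and none fell, with 13.9% of all genes higher there. They were Pla2g7, Mgll, a monoacylglycerol lipase gene, and Plcb2, a phospholipase C gene. In the authors' deposited table Mgll had a log2 fold change of 2.43 (adjusted p = 0.000439) and Plcb2 of 0.550 (adjusted p = 0.0117). Pla2g4a, which encodes the cytosolic phospholipase A2 that frees arachidonate, was not among them (log2 fold change 0.137, adjusted p = 0.528 in the authors' deposited table; named for its role, with its value known). Pla2g7, which degrades platelet-activating factor, had 1.47 in TAM (adjusted p = 3.33e-14) and 0.784 in inflammatory monocytes (adjusted p = 0.00115) in the authors' deposited table. Lpcat2, which makes platelet-activating factor, rose in monocytes by 0.607 (adjusted p = 0.00114) in the authors' deposited table. In granulocytes Pla2g7 was called higher too, with 0.497 in the authors' deposited table (adjusted p = 0.05 as rounded, just under the threshold). Pla2g4c, a cytosolic phospholipase A2 gene, had 1.83 there (adjusted p = 0.011) and Pla2g6, a calcium-independent one, -0.977 (adjusted p = 0.00393) in the authors' deposited table. Of all tested genes 7.32% were higher and 9.9% lower in granulocytes.

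Of 7 tested prostanoid receptor genes 2 rose in TAM, those of prostacyclin and of EP2, and 5 were not called, with 13.9% of all genes higher in that comparison. Ptgir, the prostacyclin receptor gene, had a log2 fold change of 1.63 (adjusted p = 3.86e-07) and Ptger2, which encodes EP2, of 1.15 (adjusted p = 9.61e-06) in the authors' deposited table. Ptgir differed between TAM and monocytes by 2.05 (SE 0.399, adjusted p = 7.72e-05). Of 4 leukotriene receptor genes, 2 rose in TAM, both for leukotriene B4, and 2 were not called. Named after their values were seen, they are Ltb4r1 with 0.799 (adjusted p = 0.00134) and Ltb4r2 with 1.31 (adjusted p = 0.0348) in the authors' deposited table. TAM and granulocytes differed by 1.03 for Ltb4r1 (adjusted p = 0.0124) and by 2.42 for Ltb4r2 (adjusted p = 0.0130). In monocytes 0 of 4 tested prostanoid and 0 of 4 leukotriene receptor genes were called by the authors' DESeq2 test. In granulocytes it was 0 of 5 and 0 of 4. Of all tested genes 5.9% were called in monocytes and 17.2% in granulocytes, so with so few genes these counts do not set TAM apart. At an unadjusted p under 0.05 there were 1 higher in monocytes (Cysltr2) and, in granulocytes, 1 higher (Ptgir) and 1 lower (Ltb4r2).

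Further down the leukotriene path, Dpep2, a dipeptidase gene that acts on leukotriene D4, rose in all 3 subsets. Dpep2 had a log2 fold change of 1.31 in TAM (adjusted p = 5.74e-08), 1.05 in monocytes (adjusted p = 0.000238) and 1.77 in granulocytes (adjusted p = 2.03e-11) in the authors' deposited table. Cyp4f18, whose product breaks down leukotriene B4 in mouse neutrophils, had 1.01 in TAM (adjusted p = 0.00035) and -0.645 in granulocytes (adjusted p = 0.0626) in the authors' deposited table, and TAM and granulocytes differed by 1.65 (SE 0.352, adjusted p = 0.000143). Cyp4f13, of the same cytochrome family, rose by 0.792 in TAM (adjusted p = 7.89e-05) and by 0.850 in monocytes (adjusted p = 0.000254) in the authors' deposited table.

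Among 6 other genes of prostanoid synthesis, Akr1b3, an aldose reductase gene, and Ptges3, a co-chaperone gene with prostaglandin E synthase activity, fell in TAM and in granulocytes. Of all tested genes 12.5% were lower in TAM and 9.9% in granulocytes, where 7.32% were higher. In the authors' deposited table Akr1b3 had -0.774 in TAM (adjusted p = 1.82e-05) and -0.478 in granulocytes (adjusted p = 0.0378). For Ptges3 the authors' deposited table gives -0.440 in TAM (adjusted p = 0.000635) and -0.365 in granulocytes (adjusted p = 0.0184). Ptges2 (0.874, adjusted p = 0.00554) and Prxl2b, a prostamide synthase gene (0.941, adjusted p = 0.00361), rose in granulocytes in the authors' deposited table. Ptgr2, which encodes a prostaglandin reductase, rose by 0.565 in granulocytes (adjusted p = 4.81e-05) and by 0.333 in monocytes (adjusted p = 0.0325) in the authors' deposited table.

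Lipoxygenases other than Alox5 gave 1 call in monocytes, Alox12e (1.44, adjusted p = 0.0221, mean count 25.8), and 1 in granulocytes, Alox12 (-2.24, adjusted p = 0.0276, mean count 7.91), in the authors' deposited table. In each subset 4 were tested, and 5.9% of all genes were called in monocytes and 17.2% in granulocytes. At an unadjusted p under 0.05, 3 were higher in TAM, 3 in monocytes and 1 in granulocytes, where 1 was lower. Alox15 had the highest mean count of them (2695) and was called in no subset. Its log2 fold change in the authors' deposited table was 1.94 in TAM (adjusted p = 0.0608), 1.10 in monocytes (adjusted p = 0.241) and 1.14 in granulocytes (adjusted p = 0.256). The list for the lipoxin and resolvin axis also holds Fpr1, a formyl peptide receptor gene. Of all tested genes 13.9% were higher in TAM, 4.13% in monocytes and 7.32% in granulocytes. From this list 3 of 6 tested genes rose in TAM, 1 of 5 in monocytes and 1 of 6 in granulocytes. Those of TAM were Cmklr1 (0.683, adjusted p = 0.00104), Fpr2 (0.953, adjusted p = 0.00663) and Fpr1 (1.36, adjusted p = 0.0142) in the authors' deposited table. Fpr1 was the one called in monocytes (2.29, adjusted p = 0.0001) and Cmklr1 the one in granulocytes (1.37, adjusted p = 1.06e-08) in the authors' deposited table.

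**Figure D4:**
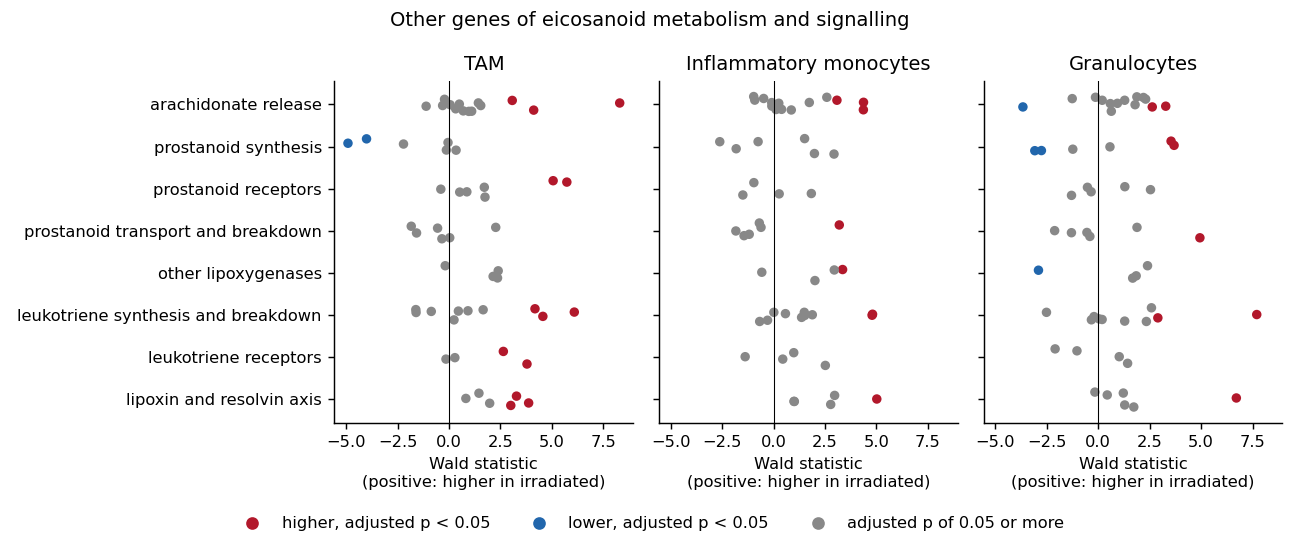
Wald statistic of irradiated over untreated cells for the other eicosanoid genes with an adjusted p-value, by role and subset (vertical scatter within a role has no meaning); colour marks calls at an adjusted p under 0.05. Called receptor genes for prostanoids and leukotrienes appear in TAM, 2 of each class.

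Cell type markers also moved in these comparisons. Of all tested genes 13.9% were higher and 12.5% lower in TAM, 4.13% and 1.77% in monocytes, and 7.32% and 9.9% in granulocytes. The marker lists are short, and no list was tested against these shares. In TAM 4 of 6 monocyte markers rose (Ly6c2 with a log2 fold change of 1.96), and so did 3 of 5 tested eosinophil markers (Siglecf with 2.48 and Ccr3 with 2.46), in the authors' deposited table. Among 10 neutrophil markers, 7 passed in TAM with a Wald statistic above 0, but the median log2 fold change of the list was -0.436 since folds and Wald statistics of several differ in sign, as for Ngp (9.20 beside -0.593) and Camp (8.66 beside -0.767) in the authors' deposited table. Dendritic cell markers fell in 4 of 6 cases in TAM (Batf3 with -1.25 and Xcr1 with -1.28), in the authors' deposited table, beside the fall of Hpgds. In inflammatory monocytes 6 of 8 macrophage markers rose (Mertk with 1.91 and C1qa with 1.26 in the authors' deposited table), as did 6 of 10 neutrophil markers (Retnlg with 2.57 and S100a8 with 2.77) and 2 of 5 eosinophil markers (Prg2 with 2.82 and Ccr3 with 1.88), beside Ptgs1 and Alox5. In granulocytes 0 of 10 neutrophil markers were called by the authors' DESeq2 test (0 at an unadjusted p under 0.05). There 3 of 6 monocyte and 3 of 8 macrophage markers rose, beside the changes of Ltc4s and Ptgs2. In the authors' deposited table Ly6c2 had 1.82 and Mertk 1.58. Among 5 tested eosinophil markers, 1 rose in granulocytes by the authors' DESeq2 test, Prg2 with 1.87 (adjusted p = 0.00191), and 4 were not called. Fibroblast markers fell in 2 of 6 cases in TAM and in granulocytes (Col1a1 with -1.77 and -1.98), and T cell markers in 2 of 5 in TAM and 1 of 5 in granulocytes (Trac with -1.28 and -1.16), in the authors' deposited table. Of 5 tested epithelial or tumour markers 1 rose in TAM (Cdh1 with 0.990), and of 4 B cell markers 1 rose in monocytes (Cd79a with 2.17), in the authors' deposited table. The part of these cells in the changes of the pathway genes was not tested. Of 8 mast cell and basophil markers, 7 had mean counts over all subsets of at most 1.32 and were untested. The other one, Kit, had a mean count of 111 and was not called in any subset, with log2 fold changes of 0.022 in TAM, 1.07 in monocytes and 0.470 in granulocytes in the authors' deposited table. Of 4 tested platelet markers, 3 were called higher in TAM, in the authors' deposited table. They were Ppbp (1.71, mean count 2155), Gp9 (1.498, mean count 5.38) and Pf4 (0.919, mean count 12768). Gp9 thus had a low count, and its values were negative in granulocytes (-1.029, not called) and in monocytes (-1.712, untested). The remaining tested marker had a mean count of 28.4 and was called in no subset. Pf4 was the one that rose in monocytes (1.44, of 3 tested) and in granulocytes (1.24, of 4 tested), in the authors' deposited table.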

How the data were processed

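Per the submitters' processing notes, the tools were DESeq2 1.28.1, R 4.0.2, STAR 2.7.6a and fastp 0.20.1, and the build was mm39 (GRCm39). How reads were counted, and on which strand, was not given in the sources used here. The authors deposited 3 tables of comparisons, with a mean normalised count (a signal averaged over libraries, identical in all 3), a log2 fold change, a Wald statistic (a score) and p-values. Genes without an adjusted p were left as untested. Replicates carry separate tumour numbers.

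Direction was taken from the Wald statistic, whose sign is that of the fold for every member. Standard errors were derived as fold over Wald statistic, where both have one sign and the absolute fold is at least 0.02. Over 3426 genes with a mean of at least 1000, the median ratio of these errors was 0.979 (TAM over IM), 0.930 (TAM over granulocytes) and 0.950 (IM over granulocytes), and group sizes alone give 0.982, 0.935 and 0.953. A shrinkage common to both tables cancels in a difference divided by its error. Whether it was common is unknown, and an unequal one would alter the test of differences. The test of differences was added after seeing the tables, beside the planned test of opposite effects. Both were run on simulated data with independent errors, in which changed genes had opposite effects and all others had none. Shared tumours and genes with equal effects in both subsets were not simulated, so these runs do not cover them.

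Exon lengths came from GENCODE M21 by symbol (99.3% of tested genes), and promoters from RefSeq (GRCm38.p6, 9 of 10 members). Members and lists were chosen with earlier results of these data known. Named genes are all members, up to 6 other pathway genes per table and direction with the smallest adjusted p, up to 2 markers per list, and the 5 genes nearest to Ptgs2. Named outside this rule, after their values were seen, were Pla2g4a, Mgll, Plcb2, Ltb4r1, Ltb4r2, Cysltr2, Alox15, Fpr2, S100a9, Kit and Pf4. Python 3.11.15, pandas 2.3.3, numpy 2.4.6 and scipy 1.17.1 were used.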

Additional observations from a re-analysis of the deposited data

Results flagged for a closer look

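The response to irradiation differed between subsets for 2 members. For Ptgs2 the difference of log2 fold changes was 1.921 (TAM minus inflammatory monocytes) and 2.115 (TAM minus granulocytes), with TAM positive and both other subsets negative. For Ptgs1 it was -1.453 (TAM minus inflammatory monocytes), with a negative value in TAM and a positive one in monocytes. Each was picked out by the test of the difference itself.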

How the results depend on the processing

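No paired analysis was possible because the deposited comparisons hold no values of single libraries, and irradiated and untreated tumours share no numbers; for the same reason no replicate could be left out. Of 240 re-tests of single members, 223 kept their side of the threshold, 12 lost a call and 5 gained one. No call changed direction. Changes of sign in members without a call were not counted, as for Ptger4 in TAM (Wald statistic 0.016, or -0.228 after centring on the median). The counts of members that moved by more than 1.5 times were as follows. In TAM the 2 higher members became 1 at an adjusted p under 0.01, with adjustment over every gene, with a fold criterion (absolute log2 value of 1 or more) or after centring on the median, 4 at an adjusted p under 0.1 and 0 over the robust SD, where the 1 lower member became 0. In inflammatory monocytes the 0 lower members became 1 at 0.1, and the 2 higher became 0 over the robust SD. In granulocytes 2 were higher and 2 lower at 0.1, none lower with the fold criterion (0), and 0 either way over the robust SD. Among the other pathway genes, dividing by the robust SD left 0 in every subset and direction. With the fold criterion 8 were higher and 0 lower in TAM, 3 higher in monocytes, and 4 higher and 1 lower in granulocytes. At 0.01, 5 were higher in monocytes, and 5 higher and 1 lower in granulocytes. At 0.1, 1 was lower in monocytes and 13 higher in granulocytes, and 2 were lower in granulocytes with adjustment over every gene. Against the 0 members with opposite effects, the added test of differences called 2 (TAM and monocytes) and 1 (TAM and granulocytes) whose folds differ in sign. It does not ask for an effect in each subset, so these are not calls of opposite effects. A minimum mean count of 50 and direction from the fold moved no count by over 1.5 times. Of 84 re-tests of differences, 81 were the same and 3 lost the call, all over the robust SD. Depth is unknown, and low-count genes went untested.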
